A study of Mus musculus with 4 samples.

Results

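Expression of 7 genes of antigen receptor rearrangement and of the double-positive thymocyte stage was described in sorted CD4+ thymocytes: Rag1, Rag2, Dntt, Ptcra, Arpp21, Aqp11 and Smad7. They were taken by name as a set for these processes, with earlier results of these data known. Smad7 is not in the list of double-positive marker genes used below. The choice was from the 19938 genes with a probe set of their own, and each of the 7 had 1 probe set. Rag2 was below the background threshold on all 4 arrays, and the other 6 were above it on all 4. The threshold was log2 5.87, below which lay 95% of 1194 odorant and pheromone receptor genes (the Olfr and Vmn families), and 12591 genes lay above it.

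The cells came from 8-week-old C57BL/6n mice that lacked the microRNA gene Mir142 (miR-142-/-) or were wild type (miR-142+/+, WT). By the labels, each genotype was 1 pool of thymi. The pool was of 4 mice (1 female and 3 male) for miR-142-/- and of 5 mice (3 female and 2 male) for WT. CD8+ cells were removed with beads, and CD4+CD8- cells were sorted as CD69-Qa2+, the more mature, and CD69+Qa2-, the less mature. The groups were miR-142-/- Qa2+, miR-142-/- Qa2-, WT Qa2+ and WT Qa2-, with 1 Affymetrix Gene 1.0 ST array each. For the miR-142-/- Qa2- array the labels disagree, since a free-text field gives Qa2+, and the title and sorting entry, which give Qa2-, were followed.

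Developing T cells assemble the genes of their antigen receptor from V, D and J segments. The RAG1 and RAG2 proteins together cut the DNA at recombination signal sequences, and the ends are joined by the general repair machinery. The beta chain is rearranged in double-negative cells, where it pairs with the pre-TCR alpha chain, and the alpha chain in CD4+CD8+ double-positive cells. Expression of Rag1 and Rag2 is known to cease after positive selection, before the single-positive stages studied here.

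The deleted gene gives a pair of mature microRNAs, shown because their absence defines the genotype. Their RefSeq sequences (build GRCm38.p6) are printed 5′ to 3′ with the seed, bases 2 to 8, in capitals.
mmu-miR-142a-5p (chr11:87756867-87756887, plus strand): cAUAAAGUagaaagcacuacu
mmu-miR-142a-3p (chr11:87756903-87756925, plus strand): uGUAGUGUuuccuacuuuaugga

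Promoter windows are shown because the members differed in the same direction between the sorts. RefSeq windows (GRCm38.p6, 250 bases before to 50 after a gene's start) were found for 6 of the 7 genes, and 5 had a single window. Capitals mark matches, on either strand, to 6 motifs: CAGNTG (an E box of E proteins), TGTGGT (Runx), TGTTTAC (forkhead), TGGGAA (the Ikaros core), AGATAA (bound by GATA factors) and CTTTGNT (TCF and LEF).
Rag1 (chr2:101649483-101649782, minus strand): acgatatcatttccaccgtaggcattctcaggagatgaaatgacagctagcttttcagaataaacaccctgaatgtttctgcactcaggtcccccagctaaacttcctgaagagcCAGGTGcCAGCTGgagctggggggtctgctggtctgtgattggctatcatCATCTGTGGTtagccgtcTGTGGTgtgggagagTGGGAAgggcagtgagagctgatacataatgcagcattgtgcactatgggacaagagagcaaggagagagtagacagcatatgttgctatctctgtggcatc
Rag2 (chr2:101624462-101624761, plus strand): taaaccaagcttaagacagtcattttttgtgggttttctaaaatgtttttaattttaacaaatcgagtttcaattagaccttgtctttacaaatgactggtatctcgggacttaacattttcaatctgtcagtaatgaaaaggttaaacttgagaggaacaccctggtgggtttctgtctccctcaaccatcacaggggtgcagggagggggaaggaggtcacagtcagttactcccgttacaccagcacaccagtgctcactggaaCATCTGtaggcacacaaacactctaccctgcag
Dntt (chr19:41029025-41029324, plus strand): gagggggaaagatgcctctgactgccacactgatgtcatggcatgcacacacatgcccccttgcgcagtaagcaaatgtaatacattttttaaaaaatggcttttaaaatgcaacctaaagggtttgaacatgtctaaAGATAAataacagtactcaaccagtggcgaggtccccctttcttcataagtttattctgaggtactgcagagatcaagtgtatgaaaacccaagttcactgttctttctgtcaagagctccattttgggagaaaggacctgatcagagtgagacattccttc
Ptcra (chr17:46763663-46763962, minus strand): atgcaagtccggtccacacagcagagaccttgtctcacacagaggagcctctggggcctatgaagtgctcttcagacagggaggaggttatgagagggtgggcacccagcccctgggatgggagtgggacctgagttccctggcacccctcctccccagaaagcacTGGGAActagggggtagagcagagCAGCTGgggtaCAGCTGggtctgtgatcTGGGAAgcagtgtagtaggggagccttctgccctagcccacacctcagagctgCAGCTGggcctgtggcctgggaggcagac
Aqp11 (chr7:97738198-97738497, minus strand): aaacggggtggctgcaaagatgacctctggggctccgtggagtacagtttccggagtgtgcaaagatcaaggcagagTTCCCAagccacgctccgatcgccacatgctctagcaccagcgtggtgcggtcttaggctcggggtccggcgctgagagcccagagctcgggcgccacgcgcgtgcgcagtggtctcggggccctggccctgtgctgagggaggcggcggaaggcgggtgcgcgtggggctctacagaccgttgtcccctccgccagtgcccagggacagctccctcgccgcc

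The E box CAGNTG matched in 3 of these 5 windows, those of Rag1, Rag2 and Ptcra, and in 51.4% of all 32851 promoter windows of that length. In Rag1 it began at bases 116, 123 and 166 of the window, and in Ptcra at bases 191, 202 and 272. The third Rag1 match shared bases with a Runx match at base 170, and a further TGTGGT began at base 184. TGTGGT matched in 1 of the 5 windows, against 16.8% of all windows. TGGGAA matched in 3 (Rag1, Ptcra and Aqp11), against 25.6%, and AGATAA in 1 (Dntt), against 11.2%. TGTTTAC and CTTTGNT matched in 0 of the 5 windows, against 3.65% and 18.6% of all windows. Arpp21 has 9 windows, of which 8 held CAGNTG, 4 CTTTGNT, 3 TGTGGT, 1 AGATAA and 0 each of the others. No motif was shared by all 5 windows, and a match is a description of letters only.

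The labels were checked on these arrays. The Mir142 probe set read log2 4.88 in miR-142-/- Qa2+ and 5.29 in miR-142-/- Qa2- cells, both below background, against 9.41 in WT Qa2+ and 10.11 in WT Qa2- cells. Cd4 lay between 12.36 and 12.64 on all arrays. Cd69, the activation marker of the sort, read 10.55 in miR-142-/- Qa2+ and 11.51 in miR-142-/- Qa2- cells, and 10.55 in WT Qa2+ and 11.32 in WT Qa2- cells. S1pr1, the receptor gene of thymic exit, read 11.51 and 8.57 in miR-142-/- Qa2+ and Qa2- cells, and 11.97 and 10.27 in WT Qa2+ and Qa2- cells, so both genes ordered the miR-142-/- arrays as the titles do. Both genotype labels name pools of mixed sex. Yet Xist read 4.83 and 5.06 in miR-142-/- Qa2+ and Qa2- cells against 12.14 and 12.67 in WT, and the Y-linked gene Eif2s3y read 10.58 and 10.55 against 4.39 and 4.29. Xist was thus below background on both miR-142-/- arrays and Eif2s3y on both WT arrays, unlike the labelled pools of mixed sex. Differences between genotypes therefore cannot be separated from differences of sex on these arrays. The part of sex in the differences below was not tested. Array medians over 35557 probe sets were log2 6.61 to 6.74, and precision is limited by having 4 arrays.

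Each of the 6 members above background was higher on the Qa2+ array of its genotype, in miR-142-/- and in WT alike, which held for 25.6% of the 12591 genes. Rag1 showed the largest difference of the 6. Of them, 5 were at least 1.5-fold higher in miR-142-/- and 6 in WT, where 2.65% and 2.69% of the 12591 genes were. At least 1.5-fold lower were 0 members in either genotype, against 3.64% of all genes in miR-142-/- and 3.69% in WT. At least 1.5-fold higher in both genotypes, the count was 5 of 6, against 1.29% of all genes. At 2-fold, 3 members were higher in miR-142-/- (0.715% of all genes) and 4 in WT (0.524%), and 0 were lower (0.818% and 0.731%). The median difference of the 6 was 1.12 in miR-142-/- and 1.21 in WT (log2), against -0.06 for all genes in each. These counts and medians describe members that were chosen with earlier results of these data known. These arrays measure RNA from whole sorted populations, so more cells that express a gene and more RNA per cell cannot be told apart.

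**Figure D1:**
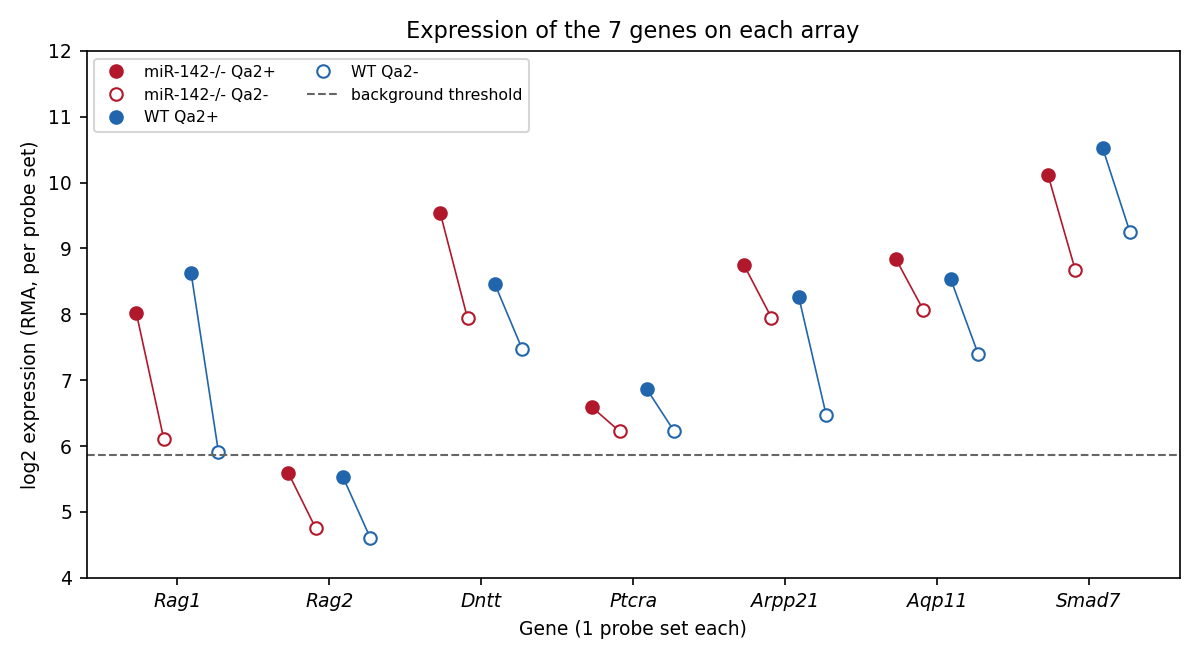
Log2 expression (y axis) of the 7 genes (x axis) on each array. Red points are miR-142-/- and blue WT, filled points Qa2+ and open points Qa2-, joined within a genotype, and the dashed line is the background threshold of 5.87. Each filled point sits above the open point of its genotype, and the 4 Rag2 points lie below the threshold.

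Rag1, the subunit with the DNA-cutting site, read log2 8.02 in miR-142-/- Qa2+ and 6.11 in miR-142-/- Qa2- cells, and 8.63 in WT Qa2+ and 5.92 in WT Qa2- cells. Both Qa2+ arrays were thus well apart from both Qa2- arrays, and the Qa2- values lay close to the threshold. The fold was 3.74 in miR-142-/- and 6.57 in WT, which placed Rag1 at rank 10 and rank 1 of the 12591 genes ordered by the increase. Rag2, the partner subunit, read 5.59 and 4.75 in miR-142-/- Qa2+ and Qa2- cells and 5.53 and 4.60 in WT Qa2+ and Qa2- cells. All 4 values were below background, so no fold is given. Their order was that of Rag1 within each genotype.

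Dntt encodes terminal deoxynucleotidyl transferase, which adds bases without a template at the joins. It read log2 9.54 in miR-142-/- Qa2+ and 7.94 in miR-142-/- Qa2- cells, against 8.46 in WT Qa2+ and 7.47 in WT Qa2- cells. The sorts did not overlap, but the miR-142-/- Qa2- value was closer to WT Qa2+ than to miR-142-/- Qa2+. The increase was 3.03-fold in miR-142-/- and 1.98-fold in WT, at ranks 21 and 68.

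Ptcra encodes the pre-TCR alpha chain. It read log2 6.59 in miR-142-/- Qa2+ and 6.22 in miR-142-/- Qa2- cells, and 6.86 in WT Qa2+ and 6.22 in WT Qa2- cells. The sorts did not overlap, and the Qa2- arrays had the same value in both genotypes to 2 decimals. Ptcra was 1.29-fold higher in miR-142-/- and 1.56-fold in WT, the smallest increases of the 6, at ranks 862 and 279. It was dim, and a threshold at the 99th percentile of receptor genes (log2 6.75) left it out.

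Arpp21, an RNA-binding phosphoprotein gene also expressed in the brain, read log2 8.74 in miR-142-/- Qa2+ and 7.95 in miR-142-/- Qa2- cells, against 8.26 in WT Qa2+ and 6.47 in WT Qa2- cells. The WT Qa2- array stood lowest by more than 1 log2 unit. The increase was 1.73-fold in miR-142-/- and 3.45-fold in WT, at ranks 175 and 9. Aqp11, an aquaporin gene of intracellular membranes, read 8.83 and 8.06 in miR-142-/- Qa2+ and Qa2- cells and 8.53 and 7.40 in WT Qa2+ and Qa2- cells. It was 1.71-fold higher in miR-142-/- and 2.19-fold in WT, at ranks 187 and 50.

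Smad7 encodes an inhibitory SMAD that restrains TGF-beta receptor signalling. It read log2 10.11 in miR-142-/- Qa2+ and 8.67 in miR-142-/- Qa2- cells, and 10.52 in WT Qa2+ and 9.24 in WT Qa2- cells. The fold was 2.73 in miR-142-/- and 2.43 in WT, at ranks 30 and 37, so its increase was the most alike in the genotypes of the 6.

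For the mean of both genotypes' stage differences, limma was fitted to all 12591 genes with genotype as a block, and p was adjusted over all of them (Benjamini-Hochberg). All 6 members passed, where 4.77% of all genes passed with a higher level in Qa2+ cells. Since the members were chosen with earlier results known, this count is not independent support for an increase. Rag1 rose by 2.31 ± 0.17 (log2 difference ± SE over 2 pairs, limma adjusted p = 0.000469) and Smad7 by 1.36 ± 0.10 (limma adjusted p = 0.000469). Dntt rose by 1.29 ± 0.15 (limma adjusted p = 0.00216), Arpp21 by 1.29 ± 0.20 (limma adjusted p = 0.00727), Aqp11 by 0.95 ± 0.12 (limma adjusted p = 0.00305) and Ptcra by 0.50 ± 0.11 (limma adjusted p = 0.0242). The pairs are pools, so the errors rest mostly on the spread pooled over genes and do not measure that between mice. Without the genotype block, 0 of the 6 passed (limma adjusted p 0.296 to 0.437). Unadjusted limma p ran from 0.000468 for Rag1 to 0.0705 for Arpp21. It was under 0.05 for 5 of 6 members and for 1544 of all 12591 genes.

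**Figure D2:**
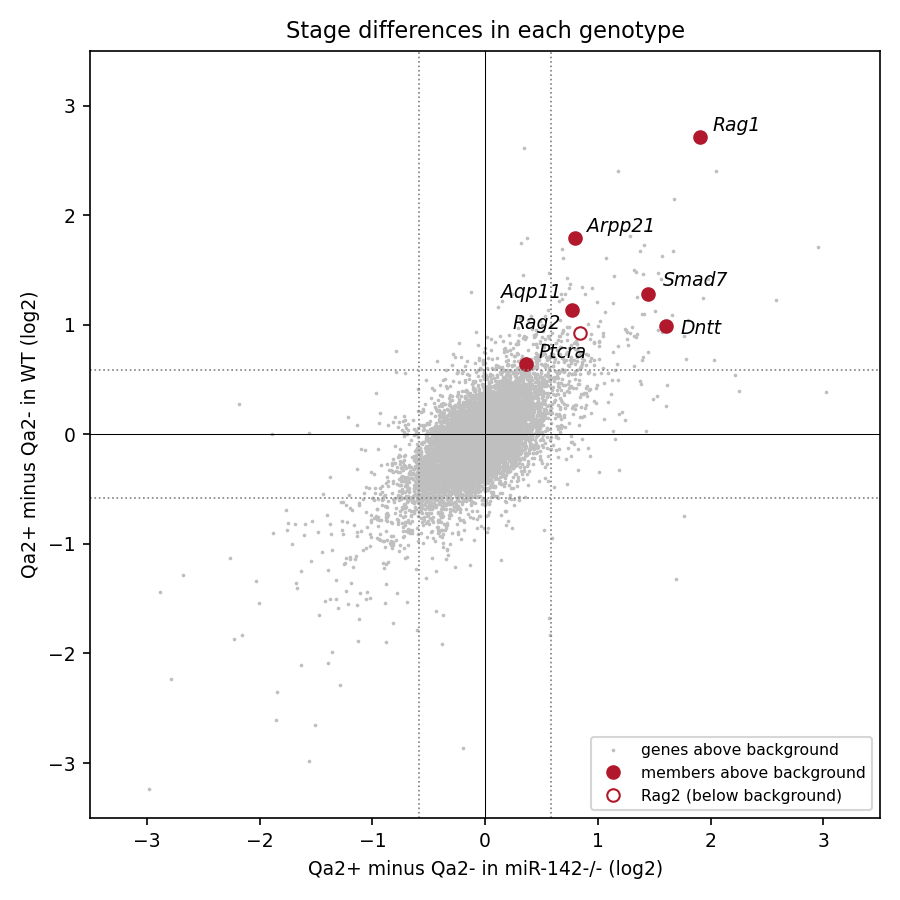
Stage difference (Qa2+ minus Qa2-, log2) of each gene above background in miR-142-/- (x axis) and in WT (y axis). Red points are the members, the open one Rag2, and dotted lines mark 1.5-fold. All 7 members lie above 0 on both axes, Rag1 farthest out among them, with Arpp21 towards the WT axis and Dntt towards the miR-142-/- axis.

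Receptor genes, which T cells are not expected to express, had stage differences with an SD of 0.21 in miR-142-/- and 0.22 in WT. Across the 1194 receptor genes these correlated at 0.47 between genotypes. The smallest member difference, that of Ptcra in miR-142-/-, was 0.36.

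By genotype the members differed in both directions. The median difference of the 6 (miR-142-/- minus WT) was 0.01 in Qa2+ and 0.33 in Qa2- cells, against 0.00 for all genes in both sorts. With 1 array per group there is no replicate check and no p-value. In Qa2+ cells 1 member, Dntt, was at least 1.5-fold higher in miR-142-/- and 1, Rag1, at least 1.5-fold lower, against 4.56% and 4.88% of all genes. In Qa2- cells 2 members, Arpp21 and Aqp11, were at least 1.5-fold higher and 0 lower, against 3.11% and 3.74%. Of the 6 members, 0 passed 1.5-fold in the same direction in both sorts, where 4.90% of all genes did. At 2-fold, 1 member was higher (1.43%) and 0 lower (1.86%) in Qa2+ cells, and 1 was higher (1.04%) and 0 lower (1.29%) in Qa2- cells.

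Rag1 was 1.53-fold lower in miR-142-/- than in WT in Qa2+ cells, while in Qa2- cells the difference was 0.20 on the log2 scale. It was the 1 member of the 6 whose genotype differences had opposite signs in the sorts, as 29.2% of all genes did. Its Qa2- values lay close to the threshold. Dntt was 2.12-fold higher in miR-142-/- in Qa2+ cells and 1.38-fold higher in Qa2- cells. The recombinase and the transferase genes therefore differed in opposite directions between genotypes in Qa2+ cells. Arpp21 was 1.40-fold higher in miR-142-/- in Qa2+ and 2.78-fold higher in Qa2- cells, and Aqp11 1.23-fold and 1.58-fold. Smad7 was lower in miR-142-/- by 1.33-fold in the Qa2+ sort and 1.49-fold in the Qa2- sort, just short of 1.5-fold. Ptcra differed by -0.27 in Qa2+ and by -0.00 in Qa2- cells, and Rag2, below background, by 0.06 and 0.15.

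**Figure D3:**
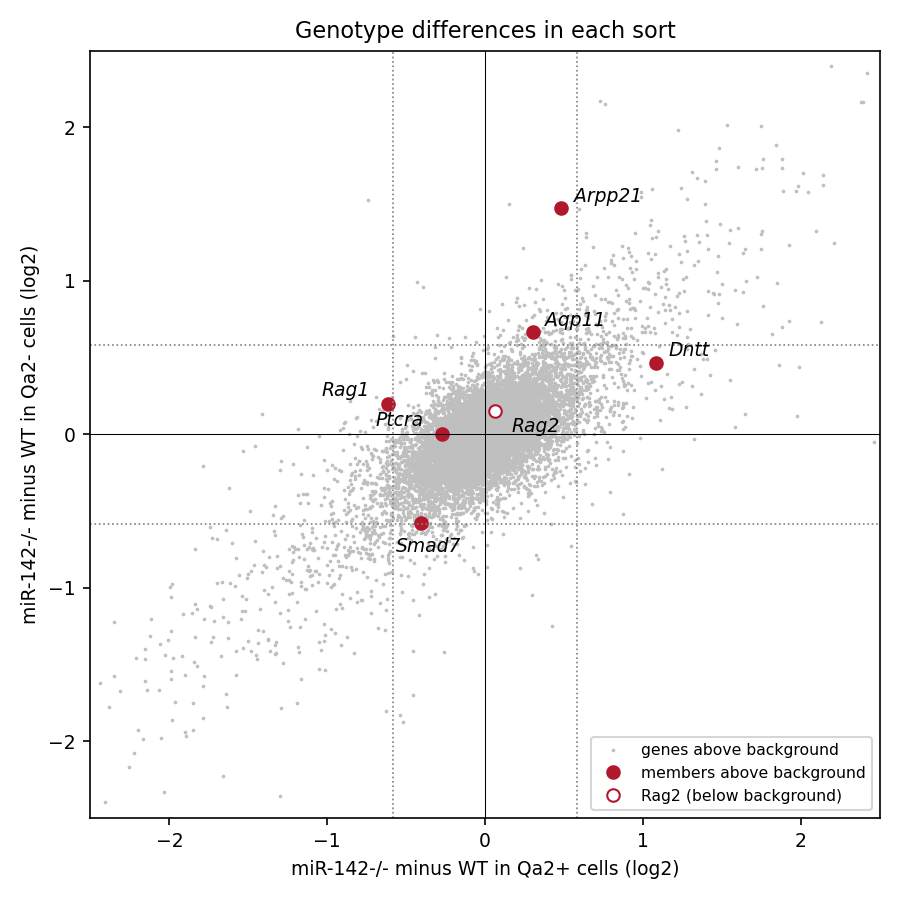
Genotype difference (miR-142-/- minus WT, log2) of each gene above background in Qa2+ cells (x axis) and in Qa2- cells (y axis). Red points are the members, the open one Rag2, and dotted lines mark 1.5-fold; 34 genes lie outside the axes. Dntt, Arpp21 and Aqp11 lie to the upper right, Smad7 to the lower left, and Rag1 to the upper left.

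The stage difference was smaller in miR-142-/- than in WT for Rag1 by 0.81, for Arpp21 by 0.99, for Aqp11 by 0.36 and for Ptcra by 0.27 on the log2 scale. It was larger in miR-142-/- for Dntt, by 0.61, and for Smad7, by 0.17. Rag1 and Arpp21 passed 1.5-fold in the first direction and Dntt in the other, against 1.60% and 1.82% of all genes. Over receptor genes the SD of this quantity was 0.22. These differences were not tested, since 4 arrays leave no residual degrees of freedom.

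Likeness among genes was measured as the distance between 4-array log2 profiles after subtracting each gene's mean, over 11927 genes above background that were neither predicted genes, receptors nor antigen receptor segments. Among the 6 members above background the closest profiles were those of Dntt and Aqp11 (distance 0.66) and of Arpp21 and Aqp11 (0.68), and the farthest those of Rag1 and Ptcra (1.83). Nearest to Rag1 were Tlr1, a Toll-like receptor gene (0.67), St8sia6, a sialyltransferase gene (0.88), n-R5s136 (0.94), Tmem71 (0.98) and S1pr4, a sphingosine phosphate receptor gene (0.99). No gene came as close to Rag1 as the nearest genes came to the other members. Tlr1 read log2 8.58 and 7.40 in miR-142-/- Qa2+ and Qa2- cells, and 9.76 and 7.36 in WT Qa2+ and Qa2- cells.

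Nearest to Smad7 were Tmem71 (0.15), S1pr4 (0.18) and Man1c1, a Golgi mannosidase gene (0.21), the first pair of which were also near Rag1. Dntt was nearest to Mir16-2 (0.25), Gucy1a1, a guanylate cyclase subunit gene (0.26), and Tbc1d30 (0.30). Arpp21 was nearest to Klhdc2 (0.24), Tsc22d3, a glucocorticoid-induced gene (0.49), and the chemokine receptor gene Cxcr4 (0.56). Aqp11 was nearest to Klhdc1 (0.18), H2-Aa (0.21) and Il6ra (0.26), and Ptcra to Mfng, a Notch-modifying glycosyltransferase gene (0.024), Tmco6 (0.044) and Grk6 (0.052). A profile here is 4 values, and the distance grows with the size of the differences, so small ones such as those of Ptcra give small distances.

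The rest of the recombination machinery was read in the same fit. Of 14 other such genes above background, 0 passed with a higher and 2 with a lower level in Qa2+ cells (limma), against 4.77% and 8.35% of all genes. For a list of 14 genes, 0 is near the share of 4.77%. The median of the 14 was -0.10 against -0.06 for all genes. Trp53bp1, a DNA break response gene, fell by 0.74 ± 0.10 (limma adjusted p = 0.00445), and Hmgb1, whose protein bends DNA for the recombinase, by 0.51 ± 0.10 (limma adjusted p = 0.0172). Prkdc, the kinase gene of end joining, differed by 0.13 in miR-142-/- and 0.16 in WT, and the ligase gene Lig4 by -0.25 and -0.32, and neither passed. Prkdc and Lig4 were chosen after their values were seen. Between genotypes, Hmgb2, a relative of Hmgb1, differed by -1.22 in Qa2+ and -1.04 in Qa2- cells, the only one of the 14 at least 1.5-fold apart in both sorts.

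Of 30 regulators of Rag expression and of the double-positive stage, 2 rose and 9 fell in Qa2+ cells, against 4.77% and 8.35% of all genes, with a median of -0.21. With centred arrays 5 rose and 7 fell, and with an intensity trend in the limma prior 1 rose and 10 fell. The 2 were Foxo1, a forkhead factor known to act on the Rag genes, which rose by 0.44 ± 0.10 (limma adjusted p = 0.0263), and Gfi1b, a repressor gene, which rose by 0.38 ± 0.10 (limma adjusted p = 0.0411), both outside the naming rule and chosen after their values were seen. Genes of receptor signalling and lineage choice were among those that fell. Nr4a1 fell by 1.19, Egr1 by 1.05, Gata3 by 0.87, Zbtb7b by 0.71, Tox by 0.64 and Lef1 by 0.42. Between genotypes, Zfp608 was higher in miR-142-/- by 2.10 in Qa2+ and 1.33 in Qa2- cells and Myb by 1.28 and 0.63, whereas E2f2 differed by -1.74 and -1.12 (log2).

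Of 22 other double-positive markers, 2 passed with a higher and 9 with a lower level in Qa2+ cells, against 4.77% and 8.35% of all genes, with a median of -0.29. With centred arrays the counts were 2 and 8, while over all genes 1076 were then higher and 721 lower. Ly6d, a GPI-anchored surface protein gene, rose by 1.49 ± 0.10 (limma adjusted p = 0.000456). Endou passed limma (adjusted p = 0.00539) with both Qa2- values below background, so its increase is given only as at least 1.14-fold in miR-142-/- and at least 1.91-fold in WT, against the threshold. Nrgn fell by 1.52, Cd24a, the heat stable antigen gene, by 1.40, Bcl2l1, which encodes the survival protein of double-positive cells, by 1.01, and Plxnd1 by 0.90. Between genotypes Nrgn and Ly6d were higher in miR-142-/-, by 1.46 and 0.90 in the Qa2+ sort and by 1.78 and 0.75 in the Qa2- sort. Cd8b1, the third gene of this list at least 1.5-fold apart in both sorts, differed by -1.23 in Qa2+ and -0.73 in Qa2- cells.

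The co-receptor that defines double-positive cells was measured beside these genes. Cd8a read log2 7.25 in miR-142-/- Qa2+ and 7.33 in miR-142-/- Qa2- cells, and 7.47 in WT Qa2+ and 7.53 in WT Qa2- cells. Cd8b1 read 8.75 and 9.24 in miR-142-/- Qa2+ and Qa2- cells and 9.98 and 9.97 in WT Qa2+ and Qa2- cells, so neither gene was higher by more than 0.01 in Qa2+ cells. Of 17 double-positive marker genes, 14 were above background, 6 rose and 1 fell, and 5 of those 6 were members. Of the 9 above background that were not members, 1 rose and 1 fell, with a median of -0.17. Of all genes, 4.77% rose and 8.35% fell. The summed linear signal of the whole marker list, members and genes below background included, was 8501 in miR-142-/- Qa2+ and 8619 in miR-142-/- Qa2- cells. In WT it was 7498 in Qa2+ and 8493 in Qa2- cells.

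**Figure D4:**
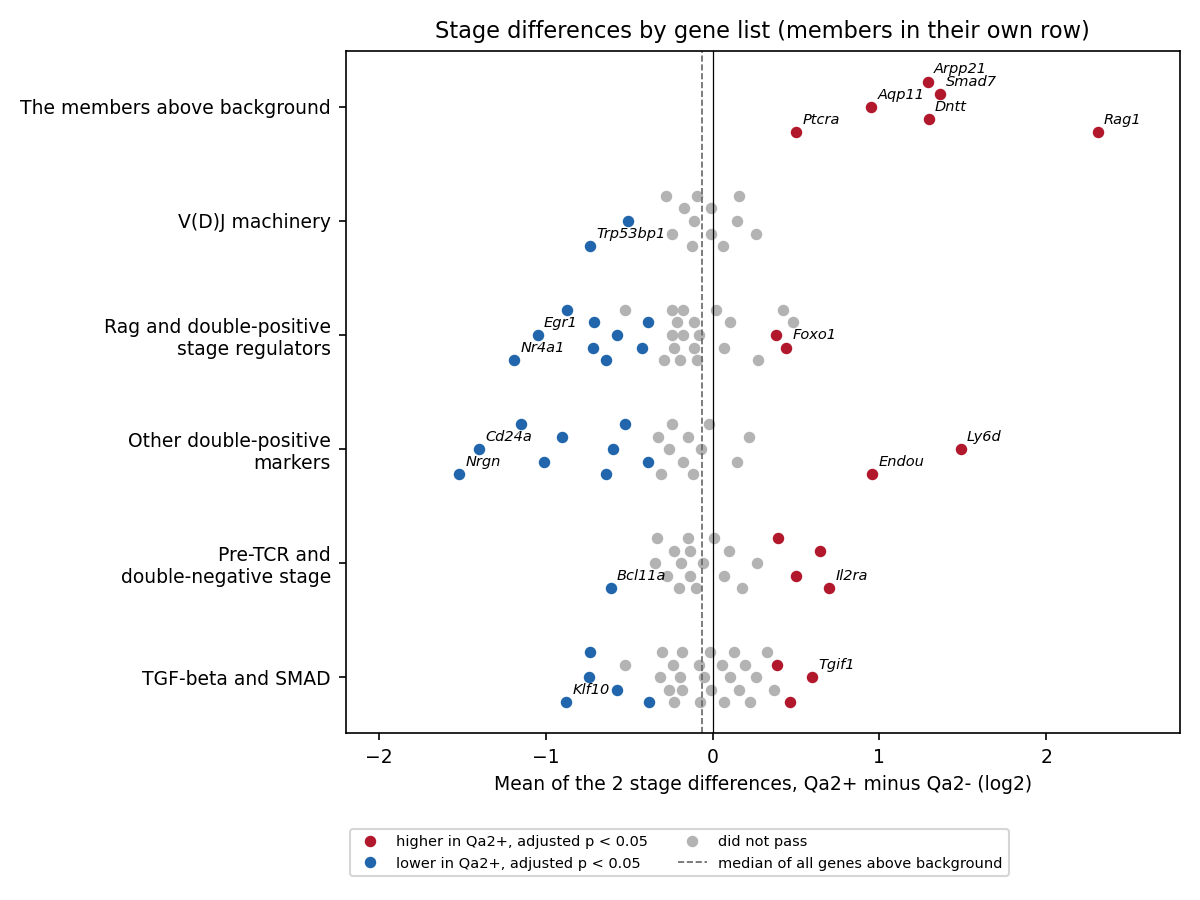
Mean of the stage differences of miR-142-/- and WT (x axis, log2, Qa2+ minus Qa2-) for genes above background in each list (rows). Red and blue points passed limma with a higher and a lower level in Qa2+ cells, grey points did not pass, and the dashed line is the median of all genes. The 6 members lie at 0.50 or more, while the other lists centre between -0.29 and -0.06. Endou and Erg are drawn at measured differences that include values below background.

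Of 21 further genes of the pre-TCR and the double-negative stage, 4 rose and 1 fell, against 4.77% and 8.35% of all genes, with a median of -0.10. Il2ra, the interleukin-2 receptor alpha chain of double-negative cells and regulatory T cells, rose by 0.70, Dtx1, a Notch target gene, by 0.64 and Notch1 by 0.39. Erg passed limma with its WT Qa2- value below background, and its increase in WT was at least 1.29-fold against the threshold. Bcl11a, a transcription factor gene, fell by 0.61. Kit, which defines early double-negative cells, lay between log2 7.42 and 7.83 and was highest in WT Qa2- cells. Cd44 was lower in miR-142-/- by 0.81 in Qa2+ and 1.03 in Qa2- cells.

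Of 32 other genes of TGF-beta and SMAD signalling, 3 rose and 5 fell, against 4.77% and 8.35% of all genes, with a median of -0.06, that of all genes, and 5 rose and 4 fell with centred arrays. Tgif1, a SMAD corepressor gene, rose by 0.60, Smurf2, a ubiquitin ligase that works with Smad7, by 0.47, and the receptor gene Tgfbr2 by 0.38. Klf10, a TGF-beta-induced gene, fell by 0.88, the activin receptor gene Acvr1 by 0.73 and the decoy receptor gene Bambi by 0.38. The signal-transducing SMAD genes Smad2, Smad3 and Smad4, chosen after their values were seen, differed between the sorts by 0.11, 0.04 and 0.07 in miR-142-/- and by -0.13, -0.15 and 0.07 in WT, and none passed. Between genotypes Bmpr2 was higher in miR-142-/- at least 1.5-fold in both sorts, by 1.40 in Qa2+ cells, and Itgae, an integrin gene induced by TGF-beta, differed by -1.58 and -1.41.

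The share of limma calls that were higher in Qa2+ cells was 36.3% as deposited, 59.9% with arrays centred on their medians and 56.1% after quantile normalization, so the split of calls by direction depends on scaling. The 6 members kept their direction and their calls under both scalings.

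Markers of other cells that express members were also read. B cell precursors carry Rag1, Rag2 and Dntt. Of 8 B cell genes with a probe set, 5 were below background, among them Pax5 (log2 5.60 to 5.80) and Vpreb1 (5.30 to 5.68). Of the other 3, 0 passed, against 4.77% of all genes that rose and 8.35% that fell. The brightest, Cd79b, was higher in Qa2+ cells by 0.37 in miR-142-/- and 0.34 in WT, just short of passing (limma adjusted p = 0.0522). Blk differed by 0.13 and 0.10, and Igll1 by -0.16 and -0.15. The summed B cell signal was 472 and 434 in miR-142-/- Qa2+ and Qa2- cells and 518 and 462 in WT Qa2+ and Qa2- cells. Siglech, which defines plasmacytoid dendritic cells, lay between 5.84 and 6.17, near background, and of the 4 genes of these cells 0 rose and 1 fell. Their sum was 1003 and 1341 in miR-142-/- Qa2+ and Qa2- cells and 844 and 887 in WT Qa2+ and Qa2- cells.

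The limma counts of the lists below stand beside 4.77% of all genes that rose and 8.35% that fell. Of 5 regulatory T cell genes, 3 rose and 1 fell. Foxp3 rose by 1.91 ± 0.13 (limma adjusted p = 0.000456), Il2ra by 0.70 and Ctla4 by 0.58. Ikzf2 fell by 0.60 and Ikzf4 did not pass (0.17, limma adjusted p = 0.334). The sum of the 5 was 4553 and 4170 in miR-142-/- Qa2+ and Qa2- cells and 5872 and 4380 in WT Qa2+ and Qa2- cells. Of 10 double-negative genes 4 rose, with sums of 6339 and 4551 in miR-142-/- Qa2+ and Qa2- cells and 6353 and 4822 in WT Qa2+ and Qa2- cells. Of 3 myeloid genes above background Lyz2 passed limma with a higher level, at least 3.06-fold in WT, where its Qa2- value was below background, while the defining gene Csf1r was below background, and the sums were 2325 and 1855 in miR-142-/- and 1738 and 1718 in WT Qa2+ and Qa2- cells. Of 4 mature CD4 genes 2 rose, S1pr1 and Klf2, while Ccr7 (-0.21) and Il7r (-0.15) did not pass. Sums of the 4 were 14437 and 12759 in miR-142-/- and 15103 and 12775 in WT Qa2+ and Qa2- cells. In CD8 single-positive, innate-like, gamma-delta and stromal lists, with 6, 3, 2 and 4 genes above background, 0 genes rose or fell by limma. For lists this short, 0 is near the shares of all genes. The CD8 and innate-like lists differed between genotypes. CD8 sums were 1975 and 1990 in miR-142-/- Qa2+ and Qa2- cells, against 2872 and 3762 in WT, with 2 of 6 genes at least 1.5-fold lower in miR-142-/- in Qa2+ and 3 of 6 lower and 1 higher in Qa2- cells. Innate-like sums were 882 and 936 in miR-142-/- Qa2+ and Qa2- cells, against 2351 and 2228 in WT, with 3 of 3 genes above background at least 1.5-fold lower in both sorts. Gamma-delta sums were 228 and 221 in miR-142-/- and 221 and 229 in WT Qa2+ and Qa2- cells. Stromal sums were 2865 and 2077 in miR-142-/- and 2275 and 2026 in WT Qa2+ and Qa2- cells. Alas2, the single erythroid gene with its own probe set, was below background. All these sums include genes below background and weigh bright genes most, so they do not measure cell content. In miR-142-/- Qa2+ cells Pecam1 of the stromal list read log2 11.25 and Cst3 of the myeloid list 10.98. Il2ra, in both the double-negative and the regulatory T list, read 11.14 there. The part of any such cells in the members' differences was not tested.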

How the data were processed

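RNA of 4 sorted CD4+ thymocyte populations was hybridised to 1 array each. The deposited table holds log2 expression values per probe set, made by the authors with RMA and Partek, per the submitters' processing notes. Tool versions are not given in the sources used here. This method compresses differences of dim probe sets and reduces shifts shared by all genes. The deposited array medians still differed, from log2 6.61 in WT Qa2+ to 6.74 in miR-142-/- Qa2- cells.

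Of 35557 probe sets, 21789 had 1 gene in the platform annotation, 1621 had several and 12147 had none. Of the 21789, 21698 matched a RefSeq gene record (GRCm38.p6) by Entrez ID, and each gene took its probe set with the highest mean. Genes below the receptor threshold were left out of tests. Stage differences are Qa2+ minus Qa2-, genotype differences miR-142-/- minus WT. The averaged stage difference was fitted with limma 3.58.1 in R 4.3.3, with genotype as a block (1 residual degree of freedom, 6.94 prior degrees of freedom, two-sided, adjusted p threshold 0.05). The blocking follows from the design, since both sorts of a genotype came from 1 pool. The fit was tested on simulated data. A bound on a fold is taken against the threshold where the dimmer value lies below it.

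Members and gene lists were chosen with earlier results of these data known. Named genes were the members, their nearest profiles (5 for Rag1 and 3 for the others), up to 6 genes per list that passed limma, up to 4 per list at least 1.5-fold apart between genotypes in both sorts, label checks and defining markers of other cells. Alternatives changed scaling, threshold, probe set choice, fold, block and prior.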

Additional observations from a re-analysis of the deposited data

Results flagged for a closer look

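Rag1 differed in opposite directions between genotypes in the sorts, by -0.61 (miR-142-/- minus WT, log2) in Qa2+ cells and by 0.20 in Qa2- cells. The difference between these was not tested, and 29.2% of all genes above background had genotype differences of opposite sign. Cd8b1 differed between Qa2+ and Qa2- cells by -0.49 in miR-142-/- and by 0.0074 in WT, also untested.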

How the results depend on the processing

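All 168 recomputed member differences moved by less than the scatter of receptor genes, by at most 0.10 on the log2 scale. Only median centring and quantile normalization could move them. A threshold does not alter a value, and each member had 1 probe set, so the other settings repeated the main values. Over the alternatives other than the fit without the genotype block, the members tested passed limma with the same direction, with adjusted p of 2e-05 to 0.000598 for Rag1, 0.000138 to 0.0026 for Dntt, 0.000887 to 0.00815 for Arpp21, 0.000396 to 0.00351 for Aqp11, 2.23e-05 to 0.000558 for Smad7 and 0.00707 to 0.0261 for Ptcra. Ptcra was not tested at the 99th percentile threshold, where it fell below it. Without the genotype block 0 genes passed limma, higher or lower, so 0 members and 0 list genes passed, with 1544 genes at an unadjusted p under 0.05. The cause was not tested. The main fit called 600 genes higher and 1051 lower. Higher calls numbered 1076 with arrays centred on their medians and 977 after quantile normalization, and lower calls 1593 with no background filter, where more genes were tested. With centred arrays Smad7 also passed 1.5-fold in Qa2- cells, making 1 member lower in miR-142-/-. At 2-fold, 3 members in place of 5 were higher in Qa2+ cells of miR-142-/-, and between genotypes 0 in place of 1 were lower in Qa2+ and 1 in place of 2 higher in Qa2- cells. Of 80 recomputed list counts, 66 stayed within 1.5 times. The genotype block already pairs the sorts of each genotype, and with 1 array per group no replicate could be left out.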
